A study of Mus musculus with 2 samples.

Results

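The genes described are 8 regulators of cell cycle exit and of the p53 pathway: Cdkn1a, Cdkn1b, Cdkn1c, Cdkn2c, Trp53, Mdm2, Gadd45a and Ccng1. They were taken by symbol, all 8 were matched to an Ensembl gene, and 27321 genes were listed in the short-read tables of both aliquots together. Muscle stem cells (MuSCs), the satellite cells that rebuild muscle, were profiled from Pax7creERT2;R26-eYFPfl/fl mice on a C57BL6 background. In these mice a Cre recombinase that needs tamoxifen is driven by Pax7 and switches on YFP, so both groups carry the same alleles and both were labelled and sorted in the same way. At 3 months of age the mice had 5 daily doses of 100 µL tamoxifen at 20 mg/ml. Quiescent cells were YFP+ cells of uninjured hindlimb muscle, and activated cells were YFP+ cells taken 72 h after 40 µL of 1.2% barium chloride had been injected. Both were pooled in 1 capture with the 10x 3' v2 chemistry, and the labels do not give the origin of a cell or the number of mice. The GEMs of that capture were split into a 10% aliquot, sequenced with short reads and nanopore long reads, and a 90% aliquot, sequenced with short reads.

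Progression through the cell cycle is driven by cyclins bound to cyclin-dependent kinases (CDKs), and CDK inhibitors hold these complexes back. Cdkn1a, Cdkn1b and Cdkn1c encode the Cip/Kip inhibitors p21, p27 and p57, which bind cyclin-CDK complexes, while Cdkn2c encodes the INK4 inhibitor p18, which binds Cdk4 and Cdk6. Trp53 encodes the transcription factor p53, Mdm2 encodes the ubiquitin ligase that degrades p53 and is itself a p53 target, and Cdkn1a, Gadd45a and Ccng1 are also classical p53 targets. In muscle, quiescent satellite cells sit outside the cycle, divide after injury, and leave the cycle again under Myod1 and Myog when they differentiate, a step at which p21 and p57 are known to act.

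Because the tables carry no origin label, barcodes were compared by depth and by cycling transcripts. Shallow barcodes had 3000 to 15000 UMIs and 0 UMIs of Rrm2, Top2a and Cdk1, 3 genes transcribed in dividing cells. Deep barcodes had at least 20000 UMIs. There were 157 shallow and 79 deep barcodes in the 10% aliquot, with medians of 6729 and 65499 UMIs, and 1243 shallow and 606 deep barcodes in the 90% aliquot, with medians of 4680 and 47106 UMIs. Class and depth therefore cannot be told apart by construction. Of the deep barcodes, 12 in the 10% and 146 in the 90% aliquot held a UMI of Myog, the gene of the differentiation factor myogenin. Levels are the summed UMIs of a class in CPM, as a share of all its UMIs, with an exact Poisson 95% interval, and a fold is a ratio of CPM with an exact conditional binomial interval. There was 1 capture and no replicate, so no test was made, and all intervals cover counting error only.

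The aliquots were not fully separate. Of the 330 barcodes of the 10% aliquot with at least 1000 UMIs, 324 also had at least 1000 UMIs in the 90% table, and for 308 of those 324 the best correlated profile in the other table was that of the same barcode. All 157 shallow and all 79 deep barcodes of the 10% aliquot were among them, against 166 of 1243 and 99 of 606 in the 90% aliquot. The folds between shallow and deep barcodes, and those with Myog or by cycling transcripts, are therefore also given for the 90% aliquot without these barcodes. The MuSC gene Pax7 was at 27.8 and 18.8 CPM in shallow barcodes of the 10% and 90% aliquot and at 12.2 and 7.8 CPM in deep barcodes. Immune markers summed to 336 and 278 CPM in shallow and to 83.9 and 4.52 CPM in deep barcodes.

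The isoforms of Cdkn1a were divided between a pair of annotated starts, and the RefSeq windows around both are therefore shown, from 250 bases before to 50 bases after each start on the plus strand of GRCm38.p6. The upstream window is chr17:29090729-29091028, around the start at base 29090979, and the window of the main start at base 29093769 is chr17:29093519-29093818. Capitals mark a match to the p53 response element in the first and a TATAA sequence in the second.
Cdkn1a upstream start: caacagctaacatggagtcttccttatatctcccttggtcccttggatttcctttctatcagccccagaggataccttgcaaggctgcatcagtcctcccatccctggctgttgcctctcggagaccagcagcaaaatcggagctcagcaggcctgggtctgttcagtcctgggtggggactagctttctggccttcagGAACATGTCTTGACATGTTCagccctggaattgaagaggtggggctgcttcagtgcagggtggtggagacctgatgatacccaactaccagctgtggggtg
Cdkn1a main start: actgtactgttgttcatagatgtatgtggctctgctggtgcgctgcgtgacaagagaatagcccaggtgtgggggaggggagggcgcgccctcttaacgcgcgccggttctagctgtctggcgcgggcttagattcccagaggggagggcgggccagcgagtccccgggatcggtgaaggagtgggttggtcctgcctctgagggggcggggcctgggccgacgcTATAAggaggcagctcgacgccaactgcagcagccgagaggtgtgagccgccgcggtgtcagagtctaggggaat
The response element was searched as 2 abutting copies of the p53 half-site with at most 1 mismatch in all. Its consensus is its own reverse complement, so 1 search covers both strands. The match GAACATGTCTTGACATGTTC lies at chr17:29090928-29090947, 51 to 32 bases before the upstream start, with 1 mismatch. Of 32851 windows of this length over all genes, 18 (0.0548%) held such a match. Windows were found for 7 of the 8 members, 9 windows in all, and no other window of a member held one. Sequence outside these windows was not searched, and that includes the Mdm2 start in intron 1 described below. Half-sites with bases between them were not searched either, so an element elsewhere in a member is not excluded. TATAA lies 25 bases before the main start and occurs in 8171 of the 32851 windows (24.9%).

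For Trp53 the long reads were divided between 2 reference transcripts that differ in the last exon, and the junction is shown because it changes the end of the protein. The last 30 bases of the exon that ends at chr11 base 69590762 are in lower case, and the first 30 bases of the last exon are in capitals. The last exon begins at base 69591350 in Trp53-201 and 96 bases earlier, at base 69591254, in Trp53-206.
Trp53-201: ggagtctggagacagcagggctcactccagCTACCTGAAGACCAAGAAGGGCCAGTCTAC
Trp53-206: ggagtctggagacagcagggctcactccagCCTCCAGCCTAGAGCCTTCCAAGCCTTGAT
The last exon holds 79 coding bases in Trp53-201 and 52 in Trp53-206.

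Between shallow and deep barcodes, 3 of the 8 members differed by at least 2-fold in the same direction in each aliquot, counted on CPM + 5 among genes with at least 50 UMIs. Cdkn1a and Gadd45a were lower in deep barcodes, and Ccng1 was higher. Of the 12923 genes that reached this minimum, 12.1% were called higher and 8.01% lower, 20.1% in all, so 1 and 2 of 8 are set against these shares. The same members were called without the shared barcodes. Most deep barcodes held cycling transcripts, and the calls of Cdkn1a, Gadd45a and Mdm2 were others without those barcodes. With deep barcodes limited to the 9 and 35 without a UMI of Rrm2, Top2a and Cdk1, the log2 fold with 5 CPM added was -0.56 and -0.70 for Cdkn1a and -0.52 and -2.03 for Gadd45a, and neither was called lower. Ccng1 (1.91 and 3.04) and Mdm2 (1.31 and 1.37) were then higher, against 9.8% of 8254 genes called higher and 9.84% called lower. For Gadd45a, 50 of the 65 UMIs in the 9 barcodes of the 10% aliquot came from 1 barcode. Its level without that barcode, given below, was far under the shallow level. The median log2 fold of the members, deep over shallow, was 0.22 in the 10% and -0.39 in the 90% aliquot, and that of all genes 0.16 and 0.15.

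**Figure D1:**
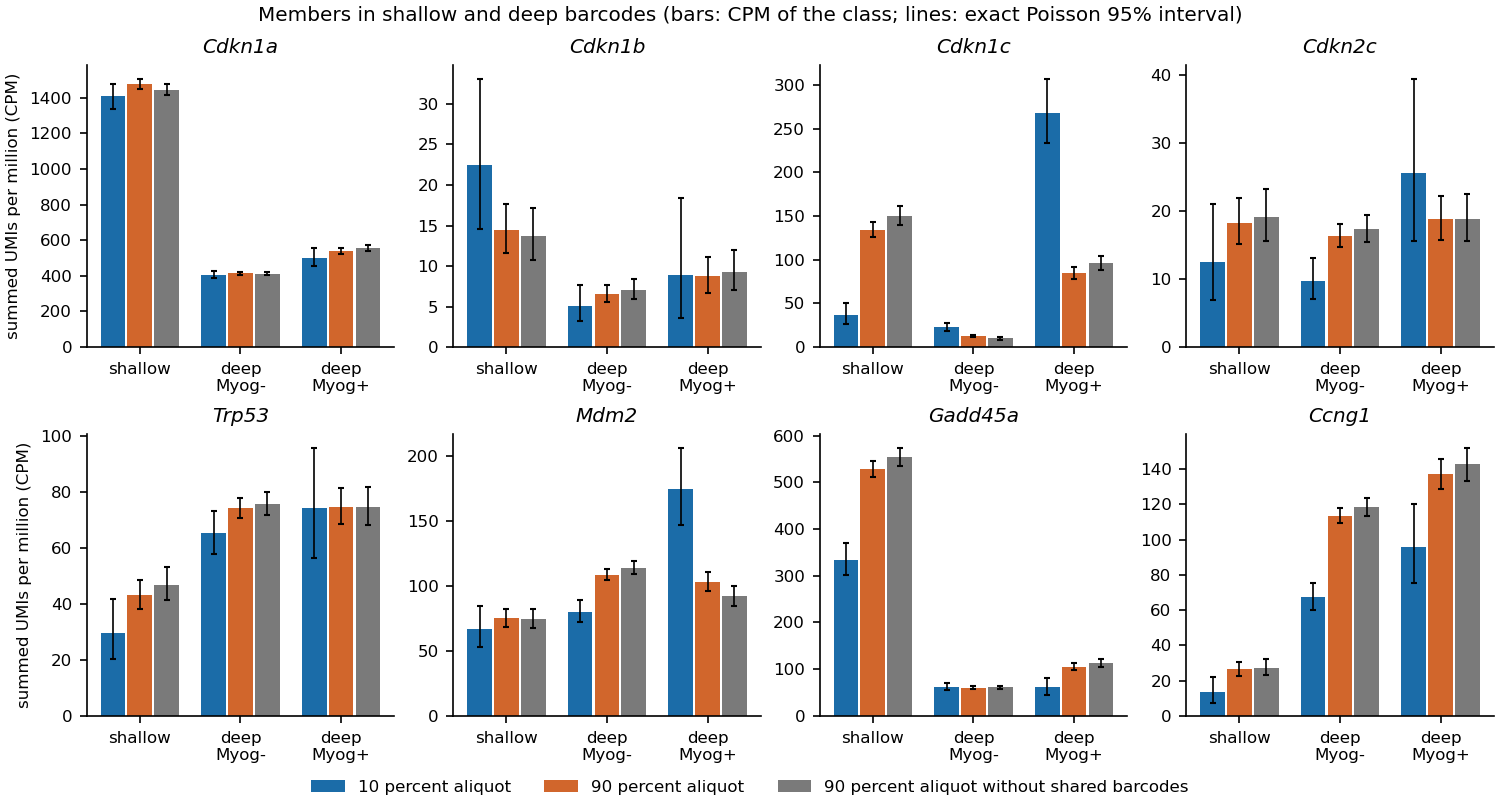
Summed CPM of each of the 8 genes (y axis, 1 panel a gene, own scale) in shallow, deep Myog- and deep Myog+ barcodes (x axis), for the 10% aliquot, the 90% aliquot and the 90% aliquot without shared barcodes, with Poisson 95% intervals. Cdkn1a falls from 1408 and 1478 CPM in shallow to 408 and 415 CPM in deep Myog- barcodes, while Cdkn1c is highest in deep Myog+ barcodes of the 10% aliquot (268 CPM). In that class 1 barcode held 93.8% of the Cdkn1c UMIs.

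Cdkn1a (ENSMUSG00000023067.14, chr17:29090976-29100727, plus strand), the gene of p21, stood at 1408 CPM (1339 to 1479) in shallow barcodes of the 10% aliquot and at 1478 CPM (1448 to 1508) in those of the 90% aliquot. Deep barcodes held 422 CPM (404 to 440) and 446 CPM (439 to 454). It was 3.34-fold (3.12 to 3.56) and 3.31-fold (3.23 to 3.40) lower in deep barcodes, and 3.22-fold lower without the shared barcodes. The aliquots gave nearly the same fold, and the intervals of shallow and deep did not meet. The difference was spread over many barcodes. In shallow barcodes the lower quartile, median and upper quartile over single barcodes were 503, 1089 and 1900 CPM in the 10% aliquot and 502, 1123 and 2105 CPM in the 90% aliquot, against 208, 325 and 672 CPM and 145, 320 and 621 CPM in deep barcodes. The quartile ranges still overlapped in both aliquots. With every barcode thinned to 3000 UMIs, the log2 fold with 5 CPM added was -1.55 and -1.63, and the calls of all 8 members stayed as they were. Thinning gives each barcode the same weight but keeps the expected share of each gene within it. It therefore cannot tell class and depth apart. Within the shallow class, barcodes with a Myod1 UMI held 1568 and 1650 CPM of Cdkn1a and those without 1225 and 1312 CPM.

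Gadd45a (ENSMUSG00000036390.8, chr6:67035096-67037457, minus strand), which encodes a stress protein that binds PCNA and Cdk1, had the largest fold of the 8 in the 90% aliquot. Its level was 335 CPM (302 to 370) and 528 CPM (511 to 546) in shallow barcodes and 61.8 CPM (55.1 to 69.0) and 71.2 CPM (68.2 to 74.3) in deep barcodes. It was 5.42-fold (4.65 to 6.31) lower in deep barcodes of the 10% aliquot and 7.42-fold (7.03 to 7.84) lower in those of the 90% aliquot. Without the shared barcodes the fold was 7.40. As for Cdkn1a, shallow barcodes with a Myod1 UMI were higher, at 382 and 593 CPM, than those without, at 280 and 466 CPM.

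Ccng1 (ENSMUSG00000020326.7, chr11:40748552-40755311, minus strand), which encodes cyclin G1, a partner of protein phosphatase 2A that acts on Mdm2, went the other way. Shallow barcodes held 13.5 CPM (7.5 to 22.2; 15 UMIs) and 26.5 CPM (171 UMIs), and deep barcodes 71.8 CPM (64.6 to 79.5) and 119 CPM (115 to 123). The level in deep barcodes was 5.33-fold (3.19 to 9.63) and 4.50-fold (3.86 to 5.28) higher, and 4.57-fold higher without the shared barcodes. The 3 p53 targets Cdkn1a, Gadd45a and Ccng1 thus did not differ in 1 direction.

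Trp53 (ENSMUSG00000059552.13, chr11:69580359-69591873, plus strand) was higher in deep barcodes but did not reach the limit in both aliquots. Its level was 29.6 CPM (33 UMIs) and 43.2 CPM (279 UMIs) in shallow and 66.5 and 74.4 CPM in deep barcodes, a fold of 2.25 (1.57 to 3.32) and 1.72 (1.52 to 1.96), or 1.61 without the shared barcodes. Mdm2 (ENSMUSG00000020184.15, chr10:117688875-117710758, minus strand) moved less, from 67.3 and 75.2 CPM in shallow to 94.9 and 108 CPM in deep barcodes. Its fold was 1.41 (1.10 to 1.82) and 1.43 (1.30 to 1.58), or 1.46 without the shared barcodes.

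Cdkn1b (ENSMUSG00000003031.14, chr6:134920401-134925513, plus strand), the gene of p27, was read from few UMIs, 25 and 93 in shallow and 29 and 211 in deep barcodes. The levels were 22.4 CPM (14.5 to 33.1) and 14.4 CPM (11.6 to 17.7) in shallow and 5.7 and 7.1 CPM in deep barcodes. It was 3.94-fold (2.22 to 6.98) lower in deep barcodes of the 10% aliquot and 2.04-fold (1.58 to 2.62) lower in those of the 90% aliquot, or 1.78-fold without the shared barcodes. With 5 CPM added the log2 folds were -1.36 and -0.69, so it was not called. Cdkn2c (ENSMUSG00000028551.14, chr4:109660876-109667189, minus strand) lay at 12.6 and 18.3 CPM in shallow and at 12.2 and 16.9 CPM in deep barcodes, and the intervals of its folds, 0.54 to 1.87 and 0.76 to 1.14, include 1. Without the shared barcodes its fold was 0.92.

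Cdkn1c (ENSMUSG00000037664.13, chr7:143458339-143461050, minus strand), the gene of p57, gave opposite directions in the aliquots. In the 10% aliquot it was at 36.8 CPM (26.4 to 49.9; 41 UMIs) in shallow and 60.2 CPM (307 UMIs) in deep barcodes, 1.64-fold (1.18 to 2.33) higher in deep barcodes. In the 90% aliquot it was at 134 CPM (125 to 143; 866 UMIs) in shallow and 30.3 CPM (904 UMIs) in deep barcodes, 4.44-fold (4.04 to 4.87) lower in deep barcodes, and 4.64-fold lower without the shared barcodes. A small number of barcodes carried each sum. Of the 866 UMIs in shallow barcodes of the 90% aliquot, 721 lay in the 19 that also held Myog, which came to 4451 CPM (4132 to 4788), against 23.1 CPM in the other shallow barcodes. The 10% aliquot had 2 shallow barcodes with Myog, and they held 0 UMIs of Cdkn1c. In its deep barcodes, 197 of the 307 UMIs came from 1 barcode, and without it the level was 21.7 CPM, below the 36.8 CPM of shallow barcodes. Of the 41 UMIs in those shallow barcodes, 19 came from 1 barcode, without which the shallow level was 19.9 CPM.

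**Figure D2:**
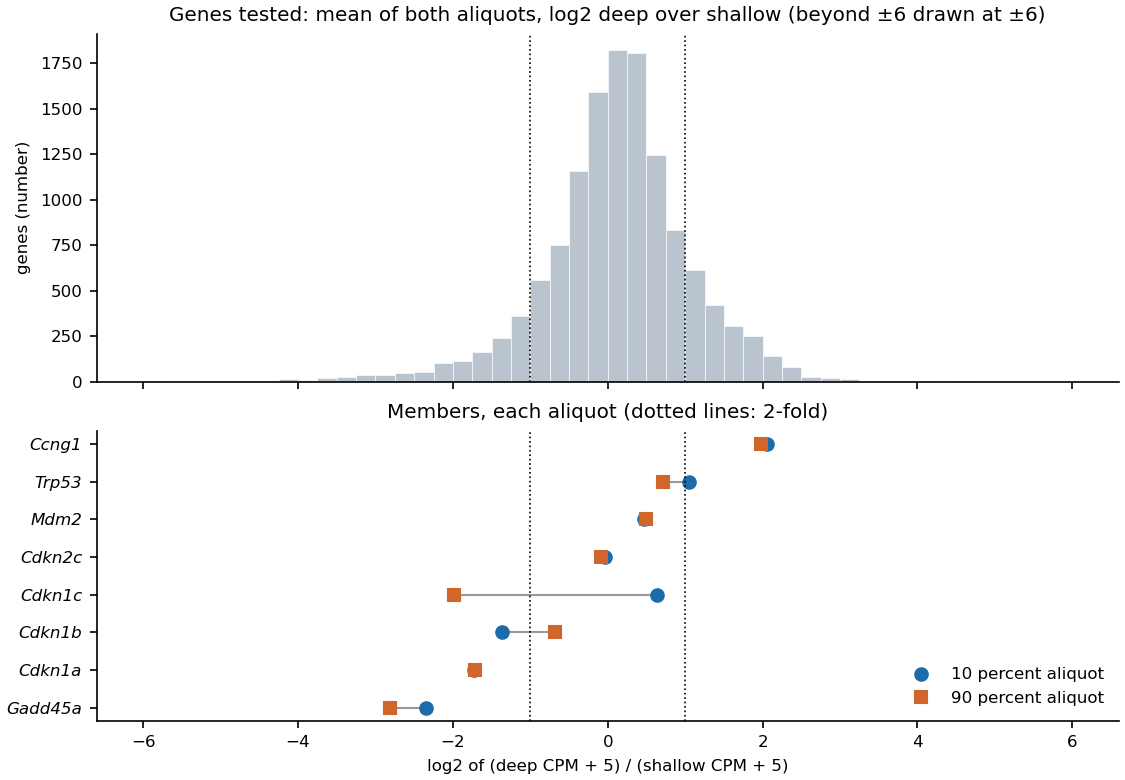
Histogram of the log2 fold of CPM + 5, deep over shallow, averaged over both aliquots, for all genes tested (x axis, log2; y axis, number of genes), with each of the 8 genes marked at its value in each aliquot and dotted lines at 2-fold. Gadd45a and Cdkn1a lie left of the lower line in both aliquots, Ccng1 lies right of the upper line, and the Cdkn1c values fall on either side of 0.

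The long reads of the 10% aliquot, 1382498 UMIs in shallow and 4628237 UMIs in deep barcodes, gave the same order of classes for the called members. They come from the same cells and cDNA as the short reads, so they are a second reading and not a replicate. Cdkn1a was at 1842 CPM in shallow and 887 CPM in deep barcodes, 2.08-fold (1.98 to 2.18) lower, which is less than with short reads. Gadd45a went from 813 to 180 CPM, and Ccng1 rose 3.97-fold (3.10 to 5.15), from 49.2 to 195 CPM. Trp53 rose 2.39-fold (2.03 to 2.83), from 116 to 278 CPM, and Cdkn1b fell from 42.0 CPM (58 UMIs) to 5.4 CPM (25 UMIs). By this reading 3 of 8 members were at least 2-fold lower in deep barcodes and 2 were higher, against 14.9% of 7504 genes lower and 23.1% higher.

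Among deep barcodes, those with at least 1 UMI of Myog were compared with those without. A single Myog UMI in a deep barcode does not by itself mark a differentiating cell. The median Myog+ barcode held Myog at 56.5 CPM in the 10% and 59.0 CPM in the 90% aliquot, and 10 of the 12 and 131 of the 146 also held cycling transcripts. In barcodes of under 500 UMIs, Myog was at 20.1 CPM (1 UMI) and 50.5 CPM (5 UMIs, all in 1 barcode). Cdkn1c was the only member called, higher with Myog, against a background of 0.182% of 12087 genes called higher and 0.0165% called lower, 0.199% in all. The median log2 fold of the members was 0.47 and 0.26, and that of all genes 0.02 in each aliquot. The member values of the 10% aliquot rested on few UMIs or barcodes. With Myog, 1 barcode held 93.8% of the UMIs of Cdkn1c, 1 held 55% of those of Cdkn2c and 1 held 43.1% of those of Mdm2. Cdkn1b had 7 UMIs there. Cdkn1c was at 22.5 CPM (97 UMIs) and 12.6 CPM (284 UMIs) in Myog- barcodes and at 268 CPM (210 UMIs) and 84.5 CPM (620 UMIs) in Myog+ barcodes. The fold was 11.9 (9.34 to 15.3) in the 10% aliquot, 6.70 (5.81 to 7.74) in the 90% aliquot and 9.53 (8.06 to 11.3) without the shared barcodes. With Myog+ set at 3 or more Myog UMIs, the log2 fold of Cdkn1c with 5 CPM added was 3.92 and 2.98. In long reads of the 10% aliquot, Cdkn1c and Cdkn2c of 7 members tested were at least 2-fold higher with Myog and none lower, against 3.97% of 6649 genes higher and 6.63% lower. The Cdkn2c fold was close to the limit, at 2.15 (1.53 to 2.98), from 53 UMIs with Myog. In the short reads of the same Myog+ barcodes, 11 of 20 Cdkn2c UMIs came from 1 barcode. For Cdkn1c 1 barcode held most of the long-read UMIs of deep barcodes, as given below.

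The short-read value of Cdkn1c in the 10% aliquot rested on 1 barcode. It held 197 of the 210 UMIs, 93.8%, at 9265 CPM, with 81 UMIs of Myog, 52 of Cdkn1a and 21262 UMIs in all. In the 90% table the same barcode had 159 UMIs of Cdkn1c among 17293, at 9194 CPM, and so belonged to neither class there. Without it the 11 other Myog+ barcodes of the 10% aliquot held 17.1 CPM (9.1 to 29.2), near the Myog- level. In the 90% aliquot the barcode with the most UMIs held 18.9% and the first 10 held 82.1%. Without the first of these, the Myog+ level was 68.8 CPM, and the log2 fold with 5 CPM added was 2.07 in place of 2.35. When barcodes with at least 3 UMIs of immune, endothelial, fibro-adipogenic, tendon or glial markers were left out, that log2 fold was 0.59. Such barcodes made up 43.2% of Myog+ and 27.8% of Myog- deep barcodes of the 90% aliquot, but 25% and 35.8% of those of the 10% aliquot. The limit of 3 UMIs is the same at every depth. It was met by 2.55% and 2.82% of shallow and by 34.2% and 31.5% of deep barcodes of the 10% and 90% aliquot. The part of such barcodes in the result was not tested.

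Cdkn1a was slightly higher with Myog, at 502 and 541 CPM against 408 and 415 CPM, a fold of 1.23 (1.10 to 1.37) and 1.30 (1.26 to 1.35), or 1.35 without the shared barcodes. The order of its levels was therefore shallow, deep Myog+ and deep Myog- in both aliquots, and the intervals of these summed levels did not meet. In the 10% aliquot the difference with Myog rested on few barcodes. The barcode described above for Cdkn1c held 52 of the Cdkn1a UMIs with Myog. Among cycling deep barcodes of that aliquot the Cdkn1a levels with and without Myog were nearly the same, as given below. Gadd45a was at 61.3 CPM with and 61.9 CPM without Myog in the 10% aliquot and at 105 and 60.2 CPM in the 90% aliquot, a fold of 0.99 (0.71 to 1.35) and 1.74 (1.59 to 1.90). Ccng1 had folds of 1.42 (1.09 to 1.84) and 1.21 (1.12 to 1.30). Without the shared barcodes the fold was 1.85 for Gadd45a and 1.20 for Ccng1.

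For Mdm2 and Cdkn2c the aliquots differed, and again 1 barcode held much of the 10% value. Mdm2 was at 175 CPM with and 80.4 CPM without Myog in the 10% aliquot, a fold of 2.18 (1.77 to 2.66), but at 103 and 109 CPM in the 90% aliquot, a fold of 0.95 (0.87 to 1.03). A single barcode held 43.1% of the Mdm2 UMIs of the Myog+ class of the 10% aliquot, and without it the level was 108 CPM. Cdkn2c was at 25.5 and 9.7 CPM in the 10% aliquot, where 11 of 20 UMIs came from 1 barcode, and at 18.8 and 16.3 CPM in the 90% aliquot, a fold of 1.15 (0.94 to 1.41). Trp53 had folds of 1.14 (0.84 to 1.51) and 1.00 (0.91 to 1.11), and Cdkn1b of 1.75 (0.63 to 4.25) and 1.34 (0.98 to 1.80), intervals that include 1. Without the shared barcodes the folds were 0.81 for Mdm2, 1.08 for Cdkn2c, 0.98 for Trp53 and 1.32 for Cdkn1b.

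Deep barcodes were also divided by cycling transcripts, a comparison added after the data had been seen. There were 9 deep barcodes with 0 UMIs of Rrm2, Top2a and Cdk1 in the 10% aliquot and 35 in the 90% aliquot, against 70 and 571 with at least 1 UMI. Their median depths were 30859 and 36428 UMIs against 67989.5 and 47930 UMIs. Cdkn1a and Cdkn1c were called higher without cycling transcripts and no member was called lower, against 0.703% of genes called higher and 2.25% called lower, 2.95% in all. The median log2 fold of the members was 0.39 and 0.88, and that of all genes -0.13 and -0.04. Cdkn1a stood at 951 CPM (841 to 1072) and 907 CPM (855 to 961) in non-cycling and at 391 and 426 CPM in cycling deep barcodes, a fold of 2.43 (2.13 to 2.77) and 2.13 (2.003 to 2.26), or 2.15 without the shared barcodes. The deep non-cycling level lay between the shallow level and the deep cycling level in both aliquots.

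The comparison combines with Myog. Cdkn1a was at 391 and 405 CPM in cycling Myog-, 392 and 493 CPM in cycling Myog+, and 702 and 726 CPM in non-cycling Myog- deep barcodes. It reached 2031 CPM in the 2 and 1132 CPM in the 15 non-cycling Myog+ barcodes. Cdkn1c was at 23.2 and 12.7 CPM in cycling Myog-, 17.8 and 60.9 CPM in cycling Myog+, 8.8 and 10.1 CPM in non-cycling Myog-, and 3739 and 370 CPM in non-cycling Myog+ barcodes. Single barcodes did not keep this order. In the 90% aliquot the highest deep cycling barcode, which was Myog+, held 4147 CPM and the highest deep non-cycling Myog+ barcode 3469 CPM. A barcode in the depth range of the shallow class that held cycling transcripts was at 4324 CPM (48 UMIs). The fold of non-cycling over cycling was 31.6 (24.9 to 40.4) and 7.07 (6.04 to 8.26), and 7.88 without the shared barcodes. Again 1 barcode in each aliquot carried the non-cycling sum. The 8 non-cycling barcodes of the 10% aliquot other than the one described held 7.7 CPM, below the 22.4 CPM of cycling ones. In the 90% aliquot 117 of the 214 non-cycling UMIs came from 1 barcode, without which the level was 79.4 CPM in place of 171 CPM, against 24.1 CPM in cycling ones.

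**Figure D3:**
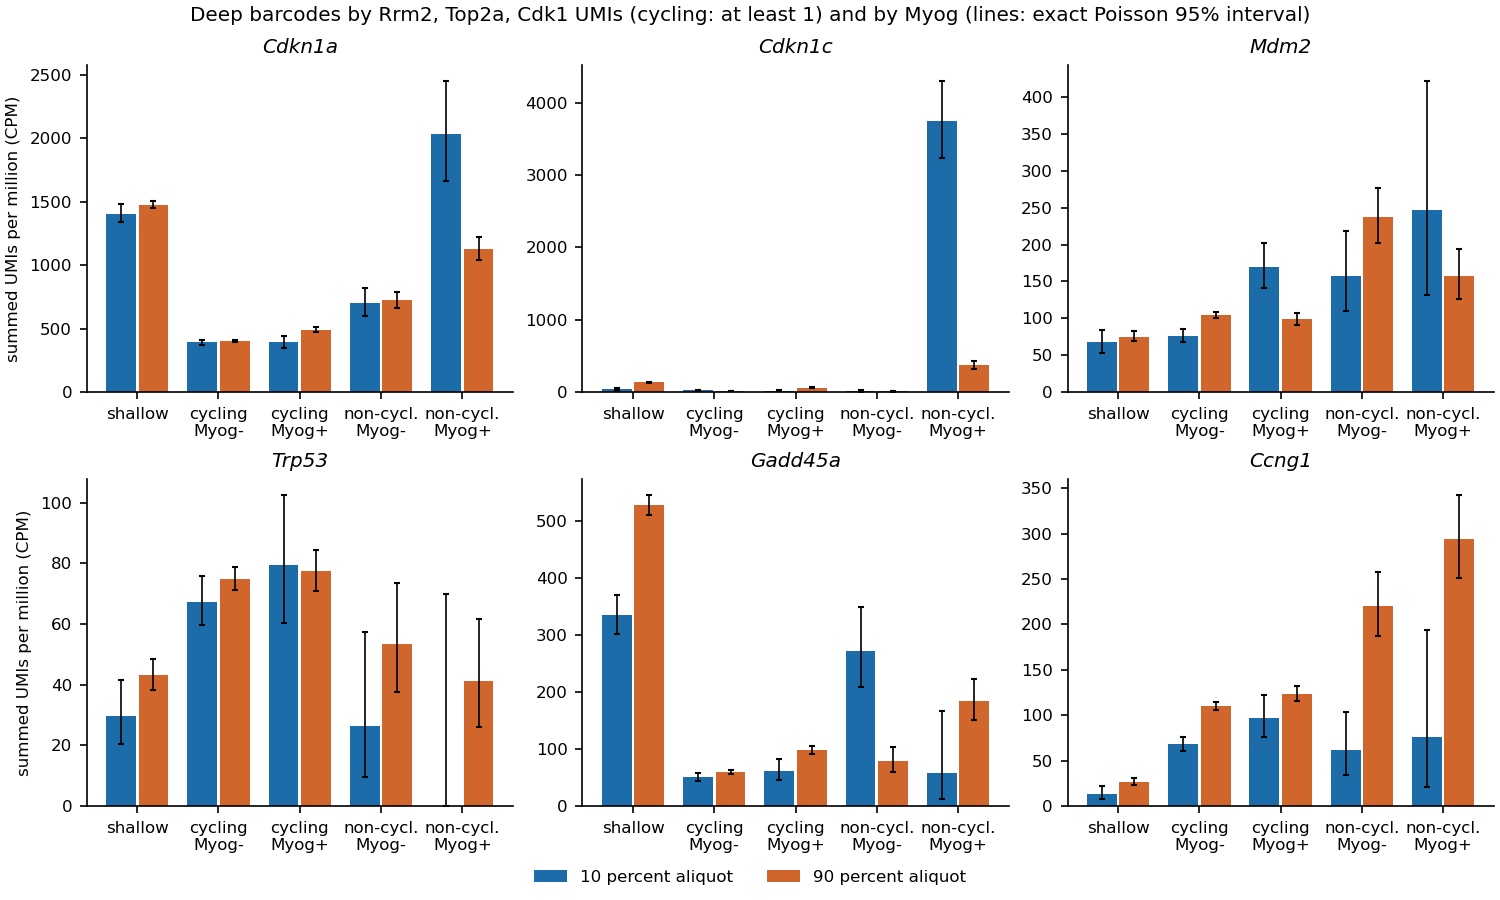
Summed CPM (y axis, 1 panel a gene, own scale) of Cdkn1a, Cdkn1c, Mdm2, Trp53, Gadd45a and Ccng1 in shallow barcodes and in deep barcodes divided by cycling UMIs and by Myog (x axis), for both aliquots, with Poisson 95% intervals. Cdkn1a is at 702 and 726 CPM in non-cycling Myog- against 391 and 405 CPM in cycling Myog- deep barcodes, and Cdkn1c reaches 3739 and 370 CPM in non-cycling Myog+ barcodes. For Cdkn1c, 1 of 2 barcodes held all 197 UMIs of the first value, and 1 of 15 held 56.5% of those of the second.

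Mdm2 was 1.93-fold (1.41 to 2.60) and 1.95-fold (1.71 to 2.22) higher in non-cycling deep barcodes, at 175 and 202 CPM against 90.3 and 104 CPM, and Trp53 was lower, at 21.4 and 47.8 CPM against 69.1 and 75.5 CPM. The Trp53 level of 21.4 CPM (7.8 to 46.5) in the 10% aliquot came from 6 UMIs, 5 of them in 1 barcode. Ccng1 was at 64.1 CPM against 72.2 CPM in the 10% aliquot and at 253 CPM against 113 CPM in the 90% aliquot. Gadd45a was at 232 and 126 CPM against 51.9 and 68.8 CPM, and 76.9% of its UMIs in the 9 barcodes of the 10% aliquot came from 1 barcode, without which the level was 57.7 CPM. Without the shared barcodes the folds in the 90% aliquot were 1.93 for Mdm2, 0.64 for Trp53, 2.36 for Ccng1 and 1.80 for Gadd45a. Immune markers summed to 1447 CPM in these 9 barcodes and to 4.57 CPM in cycling ones, against 15.1 and 4.05 CPM in the 90% aliquot. Myofibre markers summed to 107 and 297 CPM against 19.1 and 28.1 CPM. Without the 3 and 13 non-cycling barcodes that held at least 3 UMIs of immune, endothelial, fibro-adipogenic, tendon or glial markers, Cdkn1a was at 1135 and 1045 CPM, Mdm2 at 175 and 259 CPM and Gadd45a at 307 and 129 CPM. Cdkn1c was then at 1080 CPM (197 UMIs) in place of 709 CPM in the 10% aliquot, and at 87.2 CPM in place of 171 CPM in the 90% aliquot.

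**Figure D4:**
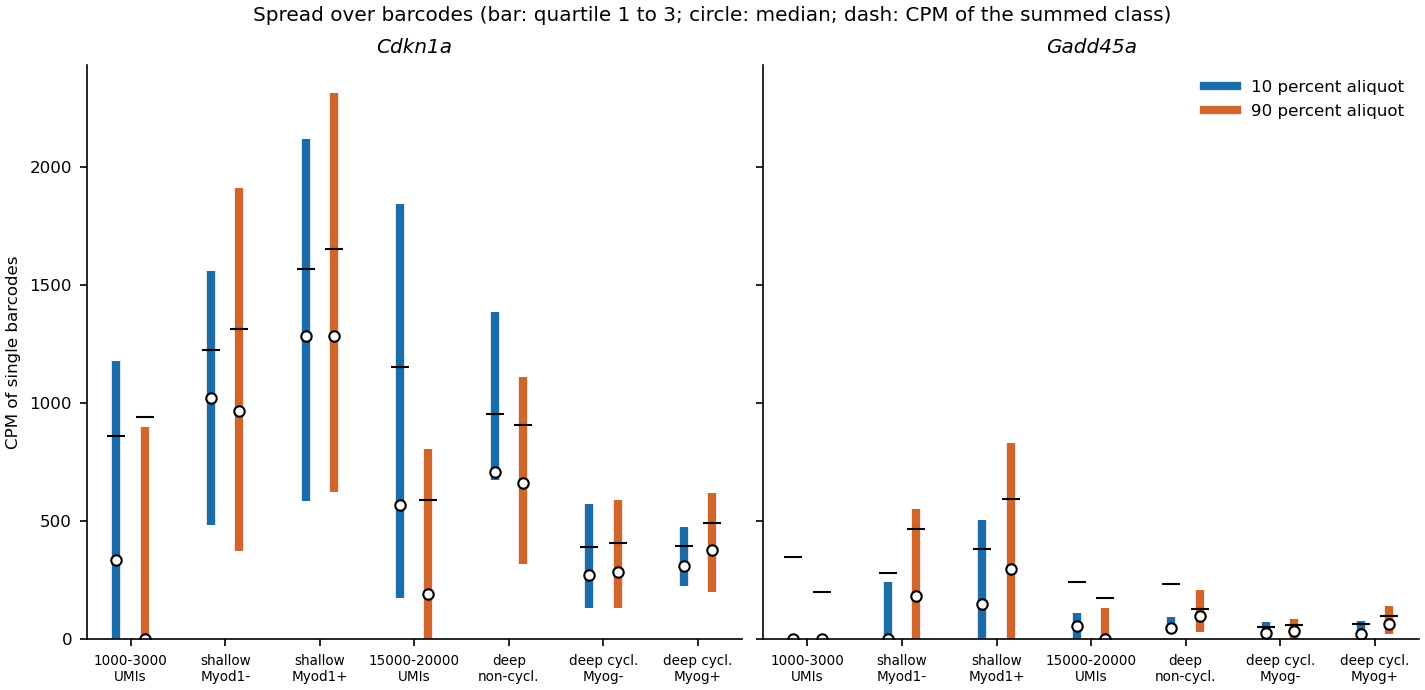
Cdkn1a and Gadd45a CPM of single barcodes (y axis) by class (x axis) in both aliquots, with bars for the quartiles, circles for the median barcode and dashes for the summed level. In shallow barcodes without Myod1 the summed Cdkn1a level is 1225 and 1312 CPM, in those with Myod1 it is 1568 and 1650 CPM, and in deep non-cycling barcodes it is 951 and 907 CPM.

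Genes these members act on or with were counted from lists. Shallow barcodes were chosen to hold 0 UMIs of Rrm2, Top2a and Cdk1, which favours low cell cycle genes there, so these counts are a description and nothing is read from them. Over all genes tested 12.1% were called higher and 8.01% lower in deep barcodes, and the counts of each list stand beside these shares. Of 16 cyclins, CDKs and pocket proteins, 9 were called higher in deep barcodes, 0 were called lower and the others were not called. The 9 included Ccnb1 (0.90 and 0.93 CPM in shallow, 46.3 and 49.8 CPM in deep), which drives mitosis, and the G1 genes Cdk4 (52.9 and 53.2 CPM, 374 and 380 CPM) and Ccnd1 (32.3 and 34.3 CPM, 157 and 197 CPM). The median log2 fold of the list was 1.34 and 1.37, against 0.16 and 0.15 over all genes. Of 4 other CDK inhibitors, Cdkn3, Cdkn2a and Cdkn2b were called higher in deep barcodes. Cdkn2a, whose locus encodes p16 and the Mdm2 inhibitor ARF, went from 8.08 and 3.10 CPM to 33.9 and 30.6 CPM. Of 8 genes of p21 and p27 turnover or binding, 4 were called higher (3 without the shared barcodes, where Rbx1 was lost) and the others were not called, with Cks1b, a cofactor of the ligase that degrades p27, at 23.3 and 32.4 CPM in shallow and 248 and 306 CPM in deep barcodes.

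Other p53 targets did not lie on 1 side. Of 25 listed, 23 were tested. Of these, 5 were called higher in deep barcodes (Bax, Phlda3, Bbc3, Zmat3 and Ptp4a3) and 3 lower (Btg2, Fas and Ier5). Over all 12923 genes tested the shares were 12.1% higher and 8.01% lower. The median log2 fold of the list was 0.08 and -0.06. Bax, which opens the mitochondrial outer membrane in apoptosis, was at 89.7 and 110 CPM in shallow and 351 and 394 CPM in deep barcodes. Btg2, which slows G1 progression, was at 179 and 251 CPM in shallow and 12.4 and 11.1 CPM in deep barcodes. Of 8 regulators of p53, Chek1, a kinase of the replication checkpoint, was called higher and none lower, a count near the share over all genes. Of the paralogs, Gadd45b was called lower, from 111 and 131 CPM to 47.9 and 43.2 CPM, and Gadd45g higher, a call that was lost without the shared barcodes.

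Transcripts that respond within minutes to stress or to tissue dissociation moved with Cdkn1a and Gadd45a. Of 13 immediate-early genes, 11 were called lower in deep barcodes, with a median log2 fold of -2.28 and -3.02, and the list summed to 3360 and 4519 CPM in shallow and to 700 and 708 CPM in deep barcodes. Egr1 alone went from 473 and 789 CPM to 19.4 and 13.4 CPM. Of the MuSC markers, 5 of 9 were called lower in deep barcodes. Of 6 committed myoblast markers tested, Mymk and Tnnt2 were called higher in deep barcodes and Myod1 lower. Myod1 was at 1106 and 1069 CPM in shallow and 185 and 213 CPM in deep barcodes. The part of these genes in the levels of Cdkn1a and Gadd45a was not tested. In the Myog comparison, where 0.199% of all genes were called, none of the cell cycle and p53 lists held a called gene. Of 6 committed myoblast markers, 4 were called higher. Mymk, the fusion gene myomaker, was at 3.24 and 7.90 CPM without and 51.1 and 53.7 CPM with Myog.

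Over the 6 profiles made of shallow, deep Myog- and deep Myog+ barcodes in each aliquot, the genes most like each member were sought among 4335 genes by Pearson's r of log2(CPM + 5). These profiles share cells between aliquots, so r is a description only. Cdkn1a was closest to Myod1 (r = 0.998), Zbtb20 (0.998) and Pknox1 (0.997), and Gadd45a to Socs2 (0.998), Rbbp6 (0.996) and Ddx17 (0.996). Ccng1 was closest to Tmem70 (0.999), 1110004F10Rik (0.998) and Ppp1r14b (0.998), and Trp53 to Uchl5, Ash2l and Fam104a (0.999 to 1.00). The nearest genes were Sart1 (0.983), Cd2ap and Dda1 for Mdm2, Mcur1 (0.966), Sec61a2 and Rnaset2b for Cdkn1c, Ddx42 (0.995), Gm15361 and Srp19 for Cdkn1b, and Mettl23 (0.987), Mkrn1 and Rbm22 for Cdkn2c.

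Isoforms were compared in the long reads of the 10% aliquot. Of the 8 members, all with at least 20 UMIs in each class, 2 had an isoform whose share of the gene's UMIs differed by at least 20 percentage points between shallow and deep barcodes, Cdkn1b and Cdkn2c. Over all 5484 genes that could be compared, 29.9% did, so the members' count of 2 in 8 is close to this background. When isoforms were grouped by start within 100 bases, 1 of 6 members differed (Cdkn2c), against 18% of 3801 genes, and by end 0 of 7, against 26.1% of 4469 genes. At a limit of 10 points, an isoform share differed for 3 of 8 members (Cdkn1b, Cdkn1c and Cdkn2c), against 65.9% of 5484 genes. The shifts of Cdkn1a, Mdm2, Trp53 and Cdkn1c given below stayed under 20 points and are descriptions only.

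For Cdkn1a 8 isoforms were counted. The main reference transcript Cdkn1a-201 held 66.7% of 2546 UMIs in shallow and 68.4% of 4105 UMIs in deep barcodes. Isoforms from the upstream start, whose window carries the response element printed above, held 5.0% (4.2 to 5.9; 128 UMIs) in shallow and 9.8% (8.9 to 10.7; 401 UMIs) in deep barcodes, 4.7 points more (3.5 to 6.0). As levels, upstream start isoforms were at 92.6 CPM in shallow and 86.6 CPM in deep barcodes, while isoforms of the main start went from 1721 to 781 CPM. The 2 starts are 2790 bases apart, and the annotated coding sequence of Cdkn1a-201 begins downstream of both, at base 29098408. Both starts lie downstream of the response element, and whether it acts on either was not tested. Between Myog+ and Myog- deep barcodes the upstream share differed by 1.9 points, with an interval of -0.5 to 4.7 that includes 0, and it was 10.5% in non-cycling and 9.6% in cycling deep barcodes.

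The 3' end of Cdkn1a moved as well. Isoforms that ended near base 29099560, 1162 bases before the main end and after the annotated stop side of the coding sequence at base 29099390, held 21.1% in shallow and 12.8% in deep barcodes, a difference of -8.2 points (-10.1 to -6.4). Their level was 388 CPM in shallow and 114 CPM in deep barcodes, against 1454 and 773 CPM for the later end. Short reads were counted at the 3' end of the gene with the 10x 3' chemistry, and the fold of Cdkn1a differed between read types as given above. The part of the 3' ends in that difference was not tested.

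Besides the promoter upstream of exon 1, Mdm2 is known to have a promoter in intron 1 that answers to p53. Long reads of Mdm2 that started in exon 1 made up 67.9% in shallow and 57.0% in deep barcodes, a difference of -10.8 points (-16.9 to -4.2). Those that started at base 117710292, in intron 1, made up 17.3% and 20.0%, a difference of 2.7 points with an interval (-2.8 to 7.5) that includes 0. Starts near base 117710022 rose from 13.3% to 21.6%, by 8.3 points (3.1 to 12.7). Within deep barcodes the intron 1 start was at 27.5% with and 17.8% without Myog, 9.7 points more (4.3 to 15.5), and within shallow barcodes it was 17.4 points (8.3 to 25.7) higher with than without Myod1. Isoforms ending early, near base 117707601, made up 17.4% in Myog- and 3.7% in Myog+ deep barcodes. The values with Myog rested on 1 barcode that held 208 of the 298 Mdm2 long-read UMIs, 69.8%. Without it the intron 1 start was at 20.0% of 90 UMIs, against 17.8%, and the early end at 12.2%, against 17.4%. Within shallow barcodes, leaving out the barcode with the most UMIs on each side gave 23.3% of 120 UMIs with and 7.7% of 78 UMIs without Myod1 for the intron 1 start.

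For Trp53 the transcript with the alternative last exon shown above, Trp53-206, held 5.0% (2.2 to 9.6; 8 of 161 UMIs) in shallow and 13.4% (11.6 to 15.3; 172 of 1287 UMIs) in deep barcodes, 8.4 points more (3.5 to 11.5). Trp53-201 held 62.1% and 62.8%. Cdkn1c ended at base 143458722 in 9.3% of UMIs in shallow and 21.8% in deep barcodes, 12.5 points more (5.7 to 17.4), and its reference transcript Cdkn1c-201 held 48.1% and 36.4%. A single barcode held 64.4% of the Cdkn1c long-read UMIs of deep barcodes, and without it the share of the earlier end was 19.7%.

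The differences that passed 20 points rested on few UMIs. For Cdkn2c 1 isoform that starts at base 109666745 held 17.6% (9 of 51 UMIs) in shallow and 56.7% (106 of 187 UMIs) in deep barcodes, 39.0 points more (24.5 to 49.7). All isoforms from that start together held 37.3% and 73.3%, 36.0 points more (20.7 to 49.3), while the innermost start, at base 109665260, went from 21.6% to 2.1%. For Cdkn1b 1 isoform held 48.3% (28 of 58 UMIs) and 12.0% (3 of 25 UMIs), a difference of -36.3 points (-51.1 to -14.5). Gadd45a-201 held 58.6% and 59.7%, and the isoform of Ccng1 with the most UMIs 35.3% and 38.1%.

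**Figure D5:**
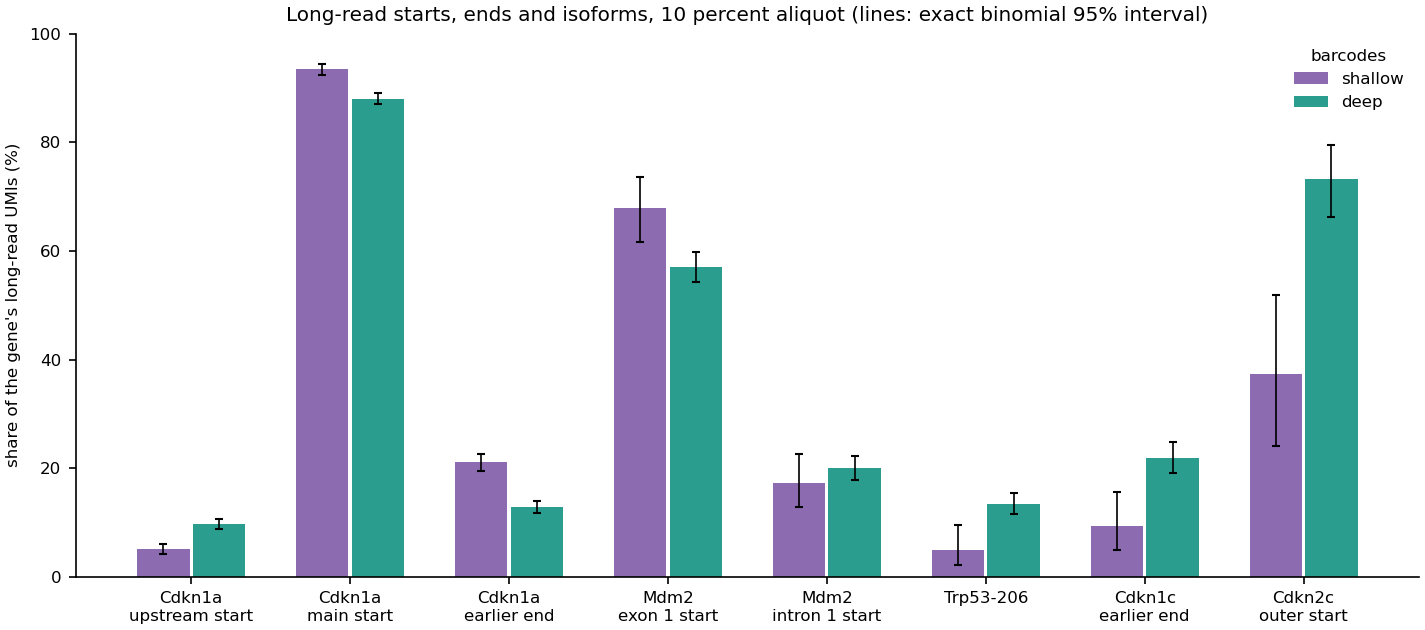
Share of a gene's long-read UMIs (y axis, percent) in shallow and deep barcodes of the 10% aliquot for start and end groups and single isoforms of Cdkn1a, Mdm2, Trp53, Cdkn1c and Cdkn2c (x axis), with exact binomial 95% intervals. The upstream Cdkn1a start goes from 5.0% to 9.8%, Trp53-206 from 5.0% to 13.4%, and the outer Cdkn2c start from 37.3% to 73.3%.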

How the data were processed

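Short-read counts and long-read isoform counts came from 1 capture of mouse MuSCs split into a 10% and a 90% aliquot, so each class of barcodes is 1 sample in each aliquot. The authors deposited UMI counts per gene for each aliquot, made with scPipe and not normalized, and UMI counts per isoform of the 10% aliquot, made with FLAMES. The submitters' processing notes name Cell Ranger 1.3, minimap2 2.17 and GRCm38.p6. Gene symbols and reference transcripts came from a Gencode annotation of the same build, and promoter windows from RefSeq. The annotation deposited with the isoform counts numbers new isoforms differently from the count table, so exon structures were taken only for isoforms named after a reference transcript.

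Counts were summed per class and divided by the total of the class (CPM). A call is a ratio of (CPM + 5) of at least 2 in the same direction in each aliquot, among genes with at least 50 UMIs over both classes and aliquots. Intervals are 95%, namely exact Poisson for levels, exact conditional binomial for folds, exact (Clopper-Pearson) binomial for shares and Newcombe for differences of shares, and they cover counting error only. Isoform shares were computed where a gene had 20 or more UMIs in both classes. No doublet caller was run, and deep barcodes may hold doublets. Genes named are the 8 members, of each list at most 8 called genes with the largest of the smaller fold of both aliquots, for each member the 3 genes of highest r with a mean of at least 20 CPM, and isoforms with at least 5% of the UMIs of a member. Start and end groups and the comparison by cycling UMIs were added after the data had been seen. The members and lists were chosen with earlier results of these data known. Analyses used Python 3.11.15, numpy 2.4.6, pandas 2.3.3, scipy 1.17.1 and matplotlib 3.10.9, and functions were tested on simulated counts.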

Additional observations from a re-analysis of the deposited data

Results flagged for a closer look

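The direction of Cdkn1c between deep and shallow barcodes differed between the aliquots, with a fold of 1.64 in the 10% and 0.225 in the 90% aliquot. The difference was not tested. Without the barcode that held 197 of the 307 deep UMIs of the 10% aliquot, its deep level was 21.7 CPM, below the 36.8 CPM of shallow barcodes, of which 1 barcode held 19 of 41 UMIs (19.9 CPM without it). The 19 shallow Myog+ barcodes of the 90% aliquot, which held 721 of its 866 shallow UMIs, were not among the barcodes with at least 1000 UMIs in both tables.

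Some members stood higher in barcodes that no comparison used than in both classes. In barcodes of 15000 to 20000 UMIs, between the classes, Cdkn1c was at 335.9 CPM in the 10% and 389.4 CPM in the 90% aliquot, with 88.6% and 57.0% of the UMIs in 1 barcode. In the 90% aliquot these were the 159 UMIs of the barcode that was deep in the 10% aliquot, and without the shared barcodes the level was 117 CPM, below the 150.3 CPM of shallow barcodes. Cdkn2c was at 100.8 and 62.8 CPM there, with 76.2% and 31.1% in 1 barcode, and at 49.7 CPM without the shared barcodes. Cdkn1b was at 30.8 CPM in barcodes of 1000 to 3000 UMIs and at 40.4 CPM in those of under 500 UMIs in the 90% aliquot, from 23 and 4 UMIs. In the 10% aliquot it had 0 UMIs in the first of these ranges, which allows up to 33.7 CPM by the exact Poisson interval, and 20.1 CPM (1 UMI) in the second, against 22.4 CPM in shallow barcodes. None of these differences was tested.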

How the results depend on the processing

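No paired analysis was possible because there was 1 capture and 1 sample per class in each aliquot. The count of members higher in deep barcodes stayed within 1.5 times its value in 15 of 17 alternatives, that of members lower in 16 of 17, that of members higher with Myog in 12 of 17, and the isoform count in 3 of 7. With deep barcodes limited to those without a cycling UMI, 2 members were higher in deep barcodes (Mdm2 and Ccng1) and 0 lower. In the 10% aliquot 1 of those barcodes held 50 of their 65 Gadd45a UMIs. With long reads, 2 were higher in deep barcodes (Trp53 and Ccng1) and 2 with Myog (Cdkn1c and Cdkn2c). The count with Myog fell from 1 to 0 with deep barcodes of at least 30000 UMIs, with cycling deep barcodes alone, with barcodes holding other cell markers left out, and with the barcode of most Cdkn1c UMIs left out of each aliquot. The log2 fold of Cdkn1c with Myog in the 10% aliquot was 3.31, but -1.03, -0.31 and -0.32 under the first, second and last of these, each of which removes the barcode that held 197 of 210 UMIs. The isoform count fell from 2 to 0 with reference-named isoforms alone and with isoforms grouped by end, and to 1 (Cdkn2c) with 50 UMIs in each class and with isoforms grouped by start. Of 132 log2 folds of called members under the alternatives, 3 reversed, all of Cdkn1c. Leaving the shared barcodes out of both tables gave no value, because the 10% aliquot then had no shallow or deep barcode.

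Depth limits Cdkn1b, Cdkn2c and Ccng1, with 25, 14 and 15 UMIs in shallow barcodes of the 10% aliquot. Shallow and deep barcodes differ in depth by definition, and no label gives the origin of a cell.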

Other observations

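Cdkn1a was highest in the shallow class of the depth ranges examined. It was at 858 and 941 CPM in barcodes of 1000 to 3000 UMIs, at 1408 and 1478 CPM in shallow barcodes, and at 1151 and 588 CPM in those of 15000 to 20000 UMIs. Barcodes of 3000 to 15000 UMIs with a UMI of Rrm2, Top2a or Cdk1, 21 and 148 in number, held 671 and 870 CPM, below the shallow class (medians of 6464 and 5593 UMIs against 6729 and 4680). In barcodes of under 500 UMIs Cdkn1a was at 926 and 293 CPM.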
